A study of Mus musculus with 6 samples.

Results

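The genes described here encode 8 receptors that neutrophils and other myeloid cells use to sense bacterial peptides, complement fragments and lipid mediators: the formyl peptide receptor genes Fpr1, Fpr2 and Fpr3, the anaphylatoxin receptor genes C5ar1, C5ar2 and C3ar1, the platelet-activating factor (PAF) receptor gene Ptafr and the chemerin receptor gene Cmklr1. They were chosen by symbol, and all 8 were found among the 45777 genes of the count table. The RNA came from neutrophils of wild type C57BL/6 mouse bone marrow, isolated on a Percoll density gradient and kept for 24 h with 10 µM prostaglandin E2 (PGE2, 3 libraries) or with the DMSO vehicle (3 libraries). The series design calls the 3 libraries of a group biological replicates, and the labels do not say whether cells were pooled over mice. Both groups share the strain, the genotype, the isolation and the culture time, and no group without culture was used here.

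Chemoattractant receptors of this kind are G protein-coupled receptors that signal mainly through Gi proteins. Their free beta-gamma subunits switch on phospholipase C beta and phosphoinositide 3-kinase gamma, which drive calcium release, the oxidative burst and migration, and receptor kinases and arrestins then shut the receptor off. C5ar2 differs from the others in that it binds the complement fragment C5a and couples to arrestins but not to G proteins. PGE2 acts on neutrophils through receptors that raise cyclic AMP, a second messenger that dampens many of these responses.

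In these data Ptafr, Fpr1 and C5ar2 were lower with PGE2, by 1.41-fold for Ptafr and by less for the other two. Fpr2 and C5ar1, which together with Fpr1 are the most abundant of the 8 transcripts, did not pass the test. The 3 low transcripts C3ar1, Cmklr1 and Fpr3 did not pass either, with wide intervals. No receptor gene was called higher. Levels per library are given as CPM (read counts scaled to library size) with TMM scaling, errors of means are SDs over 3 libraries, and fold changes come from edgeR's quasi-likelihood test with Benjamini-Hochberg adjustment over 15947 tested genes, on the log2 scale as PGE2 over vehicle with standard errors.

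The 3 Fpr genes lie in 1 cluster on mouse chromosome 17 (build mm10), with Fpr1 at chr17:17876471-17883939 on the minus strand, Fpr2 at chr17:17887824-17893952 on the plus strand and Fpr3 at chr17:17970458-17971677 on the plus strand. Their coding sequences are alike, with 88.2% identity between Fpr2 and Fpr3, 69.8% between Fpr1 and Fpr2 and 70.0% between Fpr1 and Fpr3. The coding stretch of 101 bases in which Fpr2 and Fpr3 differ least is shown because it bears on how far reads can be told apart. It spans coding bases 145 to 245 of Fpr2 and Fpr3 and 169 to 269 of Fpr1 in the GENCODE mouse transcripts, and capitals mark the 29 positions at which the 3 genes are not all the same.
Fpr1: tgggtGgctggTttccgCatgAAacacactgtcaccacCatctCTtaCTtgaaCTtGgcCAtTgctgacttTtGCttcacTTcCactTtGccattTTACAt
Fpr2: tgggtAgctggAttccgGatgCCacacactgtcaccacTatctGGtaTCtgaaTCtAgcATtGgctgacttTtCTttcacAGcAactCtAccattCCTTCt
Fpr3: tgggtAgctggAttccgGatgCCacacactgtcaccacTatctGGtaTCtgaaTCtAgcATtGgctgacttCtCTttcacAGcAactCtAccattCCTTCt
Fpr2 and Fpr3 differed at 1 position of this stretch, and Fpr1 differed from Fpr2 at 28. In PGE2 library 1 the deposited coverage was multiplied by the annotated transcript length and divided by the count. This gave 101 bases for Fpr1, C3ar1 and Ptafr, the genes with 1 annotated transcript. The other receptor genes have several transcripts, with values such as 68.8 and 88.3 bases for Fpr2 and 98.4 and 94.7 bases for Fpr3. Their values were not read as a read length. No window of 101 bases was identical between any pair of the 3 Fpr genes' GENCODE transcripts. For Fpr2, the length implied by the authors' length-scaled level (TPM) per read, scaled to Ptafr, was 1296 bases. Its longest GENCODE transcript has 1133 bases, so any Fpr2 sequence counted beyond the GENCODE transcripts was not searched. The longest identical run of Fpr2 and Fpr3 was 94 bases, so a read from that run and shorter than it, or one with mismatches, could be counted for the other gene, and the Fpr3 counts are uncertain for this reason.

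The promoter windows of the 3 genes that were called are shown next. Each runs from 250 bases before to 50 bases after the RefSeq start on build GRCm38.p6. The 3 genes are set side by side only because they passed the test, and shared regulation was not tested. Ptafr is at chr4:132563817-132564116 on the plus strand, Fpr1 at chr17:17883890-17884189 on the minus strand and the upstream start of C5ar2 at chr7:16244105-16244404 on the minus strand, each printed along its gene. Capitals mark matches to the motifs searched.
Ptafr: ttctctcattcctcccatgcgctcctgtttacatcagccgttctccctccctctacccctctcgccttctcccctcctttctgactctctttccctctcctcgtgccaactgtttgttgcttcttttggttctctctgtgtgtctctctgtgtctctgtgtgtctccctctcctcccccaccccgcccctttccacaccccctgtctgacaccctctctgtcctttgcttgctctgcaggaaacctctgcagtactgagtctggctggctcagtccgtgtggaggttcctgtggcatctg
Fpr1: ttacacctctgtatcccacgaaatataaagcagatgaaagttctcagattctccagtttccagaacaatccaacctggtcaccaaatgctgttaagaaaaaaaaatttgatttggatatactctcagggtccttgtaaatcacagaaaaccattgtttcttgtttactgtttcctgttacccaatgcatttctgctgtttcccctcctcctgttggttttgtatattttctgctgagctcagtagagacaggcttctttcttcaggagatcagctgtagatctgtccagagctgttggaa
C5ar2: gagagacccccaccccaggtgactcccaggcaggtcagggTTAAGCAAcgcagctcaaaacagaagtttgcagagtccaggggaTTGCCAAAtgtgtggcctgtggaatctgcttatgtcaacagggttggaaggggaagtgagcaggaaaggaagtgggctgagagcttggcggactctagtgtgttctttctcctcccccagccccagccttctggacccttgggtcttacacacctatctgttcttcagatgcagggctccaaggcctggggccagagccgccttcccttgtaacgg
The motifs were TGACG (the core of the cyclic AMP response element), TGANTCA (AP-1), GAGGAAG (PU.1) and TTGCNNAA (C/EBP), searched on both strands. Among promoters of 14419 tested genes, 29.1% held TGACG, 5.56% TGANTCA, 13.9% GAGGAAG and 9.38% TTGCNNAA. The C5ar2 window held TTGCNNAA at -166 and, on the other strand, at -210 from the start. The windows of Ptafr and Fpr1 held none of the 4 motifs, nor did those of Fpr2, Fpr3, C5ar1 and Cmklr1. A second start of C5ar2 held GAGGAAG at -26, and C3ar1 held TGANTCA at -22. A match describes letters only, and no binding was measured.

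The PAF receptor gene Ptafr (gene ID 19204, chr4:132564067-132582683, plus strand) had the lowest adjusted p of the 8. It was at 142, 134 and 141 CPM in PGE2 libraries 1, 2 and 3, against 184, 203 and 203 CPM in vehicle libraries 1, 2 and 3. Every PGE2 library lay below every vehicle library. The means were 139 ± 4.46 CPM with PGE2 and 197 ± 10.9 CPM with vehicle (SD, n = 3 each). Ptafr was lower by -0.50 ± 0.08 on the log2 scale (95% interval -0.68 to -0.32, adjusted p 0.00322 by edgeR). It passed under 13 of 13 alternative settings, with log2 fold changes from -0.60 to -0.40. In these bulk samples, fewer cells of a type and less RNA per cell cannot be told apart, which holds for each gene below.

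Fpr1 (gene ID 14293), the high-affinity receptor for bacterial formylated peptides, was at 489.6, 495 and 458 CPM in the PGE2 libraries and at 595, 635 and 609.7 CPM in the vehicle libraries. The groups did not overlap. It averaged 481 ± 20.3 CPM with PGE2 and 613 ± 20.4 CPM with vehicle (SD, n = 3 each). The log2 fold change was -0.35 ± 0.08 (95% interval -0.53 to -0.17, adjusted p 0.0135 by edgeR). It passed in 12 of 13 alternatives, and missed without vehicle library 2, with an adjusted p of 0.0727 by edgeR.

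C5ar2 (gene ID 319430, chr7:16234587-16244182, minus strand), the arrestin-coupled C5a receptor, was at 102, 98.6 and 94.3 CPM in the PGE2 libraries and at 116, 120.4 and 129 CPM in the vehicle libraries. The groups did not overlap. The means were 98.4 ± 4.03 CPM with PGE2 and 122 ± 6.74 CPM with vehicle (SD, n = 3 each). The log2 fold change was -0.31 ± 0.08 (95% interval -0.49 to -0.12, adjusted p 0.0269 by edgeR). This call was the least stable of the 3. It was lost without PGE2 library 2 (adjusted p 0.0734 by edgeR), PGE2 library 3 (0.0900), vehicle library 2 (0.0821) or vehicle library 3 (0.0941), and with library totals alone in place of TMM (0.10002). Another gene on the same strand, LOC115486844, overlaps C5ar2 and held 1 to 25 reads a library.

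Of the 8 receptor genes, 3 were called lower and 0 higher, beside 14.3% of all tested genes called lower, 10.1% called higher and 24.4% called in either direction by edgeR. Of all tested genes, 1618 were called higher, or 2648 with the replicate number as a block. At an unadjusted p under 0.05, 0 receptors were higher and the same 3 were lower, and the share of all genes at that threshold was not computed. DESeq2 also called 0 receptors higher and 3 lower, beside 1961 higher and 2665 lower of all 15947 genes. All 8 passed the filter on low counts. Among genes with a mean count of at least 100, which include 7 of the 8 receptors, 19% were called lower. The groups did not overlap, with every PGE2 library below every vehicle library, for the same 3 receptors and for 21.8% of all tested genes. The median log2 fold change of the 8 was -0.26, against 0.04 for all tested genes.

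**Figure D1:**
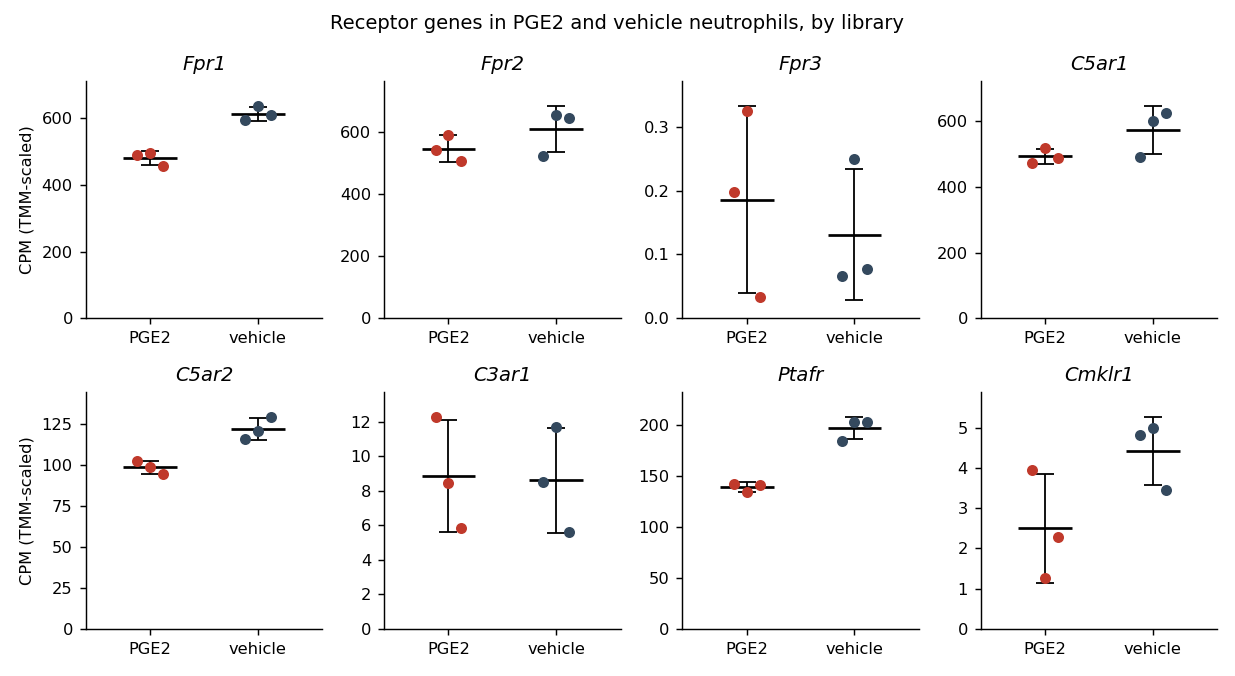
CPM (TMM-scaled, linear axis from 0) of each receptor gene, with 1 point a library, a bar at the mean and whiskers of 1 SD. For Ptafr, Fpr1 and C5ar2 the PGE2 points lie below the vehicle points, and for the other 5 genes the groups overlap.

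Fpr2 (gene ID 14289), the receptor for a broad set of formylated peptides, serum amyloid A and annexin A1, was at 540.4, 591 and 506 CPM in the PGE2 libraries and at 524, 656 and 645 CPM in the vehicle libraries. The groups overlapped, because vehicle library 1 lay below 2 of the PGE2 libraries. Means were 546 ± 42.8 CPM with PGE2 and 608 ± 73.5 CPM with vehicle (SD, n = 3 each), and the log2 fold change of -0.16 ± 0.11 did not pass (adjusted p 0.362 by edgeR). Its 95% interval ran from -0.41 to 0.10, which includes a fall of 1.33-fold. It did not pass in any of the 13 alternatives, where the lowest adjusted p was 0.0801.

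C5ar1 (gene ID 12273, chr7:16246743-16259540, minus strand), the G protein-coupled C5a receptor, was at 473, 519 and 488 CPM in the PGE2 libraries and at 490.3, 602 and 626 CPM in the vehicle libraries. PGE2 library 2 lay above vehicle library 1. The means were 493 ± 23.05 CPM with PGE2 and 573 ± 72.2 CPM with vehicle (SD, n = 3 each), with a log2 fold change of -0.21 ± 0.11 (95% interval -0.46 to 0.03, adjusted p 0.191 by edgeR). C5ar1 passed without vehicle library 1 (adjusted p 0.0413 by edgeR). It also passed on log2(TPM + 1), with a log2 fold change of -0.32 and an adjusted p of 0.0456 by limma.

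The remaining receptors were scarce. C3ar1 (gene ID 12267, chr6:122847140-122856157, minus strand), the C3a receptor, was at 12.3, 8.45 and 5.81 CPM with PGE2 and at 8.53, 11.7 and 5.61 CPM with vehicle, with overlapping groups. Its log2 fold change was 0.04 ± 0.33 (95% interval -0.71 to 0.79, adjusted p 0.946 by edgeR), and it was below 0 without PGE2 library 1 (-0.26), without vehicle library 3 (-0.19) and on log2(TPM + 1) (-0.056).

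Cmklr1 (gene ID 14747, chr5:113612355-113650475, minus strand), a receptor for the chemoattractant chemerin, was at 3.95, 1.26 and 2.29 CPM with PGE2 and at 4.82, 4.98 and 3.44 CPM with vehicle. PGE2 library 1 lay above vehicle library 3. The log2 fold change was -0.82 ± 0.38 (95% interval -1.70 to 0.06, adjusted p 0.164 by edgeR). Cmklr1 passed without PGE2 library 1, at -1.30 on the log2 scale (adjusted p 0.0286 by edgeR). The antisense gene Gm15736 overlaps Cmklr1 and held 0 to 2 reads a library, and the sources used here do not say whether strand was used in counting.

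Fpr3 (gene ID 14294), a mouse formyl peptide receptor close to Fpr2, had 10, 17 and 2 reads in the PGE2 libraries and 3, 10 and 4 reads in the vehicle libraries. These counts are too few for a direction (log2 fold change 0.51 ± 0.98, 95% interval -1.76 to 2.77, adjusted p 0.757 by edgeR). The other genes of the cluster that were looked for, Fpr-rs3, Fpr-rs4, Fpr-rs6 and Fpr-rs7, had 0 reads in all 6 libraries, which allows up to 3 reads a library, or 0.0533 to 0.0713 CPM for counting error only.

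Levels of different genes were compared per length, as the authors' TPM values, which scale reads to gene length and library size. Fpr2 stood at 682 ± 24.4 TPM with PGE2 and 818 ± 51.1 TPM with vehicle, and ranked 114 to 179 among all genes over the 6 libraries. Fpr1 stood at 590 ± 42.1 TPM with PGE2 and 812 ± 30.0 TPM with vehicle, and C5ar1 at 317 ± 16.9 TPM with PGE2 and 396 ± 30.1 TPM with vehicle (SD, n = 3 each). Fpr2 lay above Fpr1 without overlap in the PGE2 libraries (665 to 709.7 against 546 to 629.8 TPM), while their ranges overlapped in the vehicle libraries (760.3 to 856 against 792 to 846 TPM).

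Ptafr followed at 62.3 ± 7.39 TPM with PGE2 and 94.6 ± 1.80 TPM with vehicle, and C5ar2 at 50.3 ± 5.97 TPM with PGE2 and 72.6 ± 4.19 TPM with vehicle. Their ranges overlapped in PGE2 libraries and not in vehicle libraries, and within each library Ptafr lay above C5ar2. C3ar1 (3.34 ± 1.33 TPM with PGE2 and 3.49 ± 1.15 TPM with vehicle) and Cmklr1 (1.51 ± 0.826 TPM with PGE2 and 2.77 ± 0.515 TPM with vehicle) had overlapping ranges in both groups. Within each library C3ar1 lay above Cmklr1. Fpr3 was lowest in both, at 0.221 ± 0.178 TPM with PGE2 and 0.173 ± 0.138 TPM with vehicle. The length that TPM per read implied, scaled to Ptafr, was 3132 to 3286 bases with PGE2 and 2922 to 2942 bases with vehicle for C5ar2. That of Cmklr1 was 2463 to 2819 bases with PGE2 and 2699 to 2855 bases with vehicle. The TPM of C5ar2 thus also carries a difference in assigned length, which CPM does not. On the TPM scale the groups did not overlap for Fpr2 and C5ar1 either, unlike on CPM. The share of all genes without overlap on TPM was not computed, so Fpr2 and C5ar1 have no background to be set against. The median log2 fold change of all genes was also lower on log2(TPM + 1), at -0.06, than with TMM, at 0.04.

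**Figure D2:**
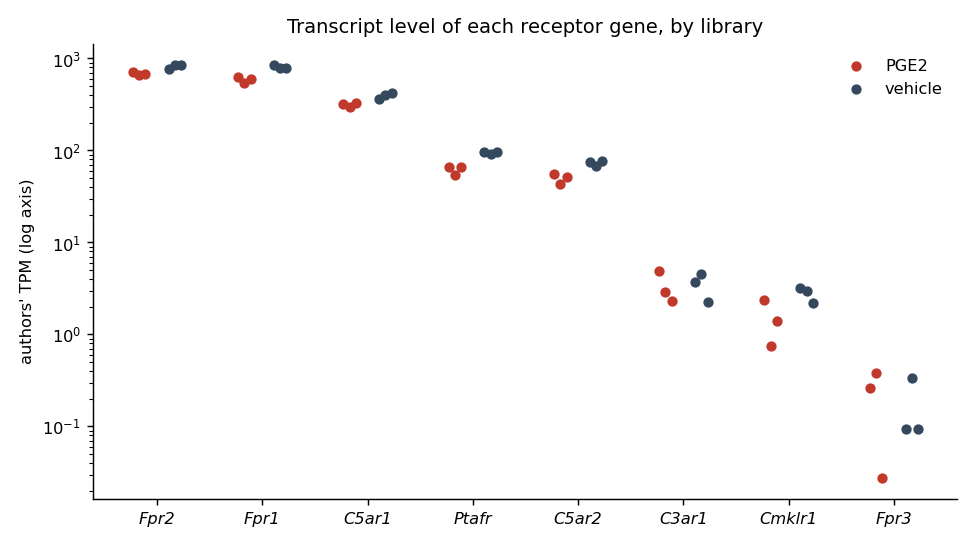
Authors' TPM of each receptor gene on a log axis, with 1 point a library, ordered by level. Fpr2, Fpr1 and C5ar1 lie above 200 TPM, Ptafr and C5ar2 between 40 and 100 TPM, and C3ar1, Cmklr1 and Fpr3 below 5 TPM.

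The summed level of the 3 Fpr genes was 1272 ± 64.5 TPM with PGE2 and 1630 ± 21.6 TPM with vehicle (SD, n = 3 each). Fpr1 made up 46.3 ± 1.11% of that sum with PGE2 and 49.8 ± 2.50% with vehicle. The ratio of Fpr2 to Fpr1 within a library was 1.13, 1.22 and 1.13 with PGE2 and 0.899, 1.05 and 1.08 with vehicle, a difference of 0.20 on the log2 scale. The ratios did not overlap, and the two-sided exact permutation p was 0.1, the smallest that 3 against 3 libraries can give. This test therefore cannot pass 0.05 for Fpr1 against Fpr2. Between same-numbered libraries the log2 ratio differed by 0.33, 0.21 and 0.063 (exact sign-flip permutation p 0.25, the smallest that 3 pairs allow). For the C5a receptors, C5ar2 to C5ar1 was 0.172, 0.147 and 0.156 with PGE2 and 0.203, 0.171 and 0.178 with vehicle, with overlap (log2 difference -0.22, exact permutation p 0.2, two-sided). Between same-numbered libraries it was lower by -0.23, -0.23 and -0.19 on the log2 scale, 1 sign in 3 of 3 pairs (exact sign-flip permutation p 0.25, again the smallest). From CPM in place of TPM that difference was -0.10.

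**Figure D3:**
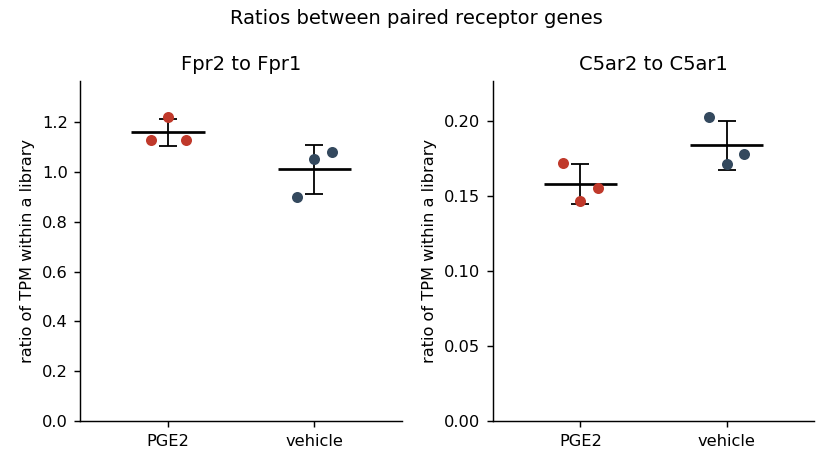
Ratio of TPM of Fpr2 to Fpr1 (left) and of C5ar2 to C5ar1 (right) in each library, with 1 point a library, a bar at the mean and whiskers of 1 SD. The PGE2 points lie above the vehicle points for Fpr2 to Fpr1, and the groups overlap for C5ar2 to C5ar1.

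The median log2 fold change of all genes was 0.04 with TMM, 0.13 with library totals and -0.06 on log2(TPM + 1), a shift of -0.10 between the first and the last. The last also differs in its test, its filter on low values, its length scaling and the 1 added to each TPM. Values on log2(TPM + 1) therefore do not show library scaling alone. The added 1 shrinks log2 fold changes most at low TPM. Cmklr1 lay at 0.747 to 2.39 TPM with PGE2 and 2.19 to 3.18 TPM with vehicle. Relative to that median, Ptafr was at -0.54 with TMM, -0.54 with totals and -0.54 on log2(TPM + 1). Fpr1 was at -0.39, -0.39 and -0.40 in the same order, and C5ar1 at -0.25 under each of the 3. C5ar2 was at -0.35, -0.35 and -0.46, and Cmklr1 at -0.86, -0.85 and -0.57, so these 2 did not keep their distance from the median on log2(TPM + 1). Of genes called in either direction, 41.5% were higher with TMM, 55.5% with totals and 30.0% on log2(TPM + 1).

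The genes whose pattern over the 6 libraries was nearest to that of Ptafr, among 10379 genes with a mean count of at least 100 and no provisional symbol, were Pfn1, which encodes the actin-binding protein profilin, and Ltbr, the lymphotoxin beta receptor. The root mean square difference of centred log2 CPM was 0.0273 for Pfn1 and 0.0287 for Ltbr. Pfn1 averaged 875 ± 30.0 CPM with PGE2 and 1205 ± 86.8 CPM with vehicle, and Ltbr 45.1 ± 1.71 CPM with PGE2 and 63.5 ± 5.33 CPM with vehicle (SD, n = 3 each).

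Genes for ligands of these receptors, or for enzymes and factors that make them, included 4 called lower and 1 called higher of 9 tested, with a median log2 fold change of -0.34. C3, the precursor of C3a, averaged 466 ± 55.1 CPM with PGE2 and 1312 ± 125 CPM with vehicle (log2 fold change -1.49 ± 0.12, adjusted p 0.000255 by edgeR). Anxa1, which encodes the Fpr2 ligand annexin A1, fell to 558 ± 125 CPM with PGE2, against 1122 ± 143 CPM with vehicle (-1.01 ± 0.17, adjusted p 0.00366 by edgeR). Cfb, complement factor B, was lower at -2.10 ± 0.32 and a low level of 1.19 ± 0.465 CPM with PGE2 and 5.12 ± 0.644 CPM with vehicle. Cfp, properdin, which stabilises the alternative pathway convertase, rose to 323 ± 41.9 CPM with PGE2, against 193 ± 20.2 CPM with vehicle (0.74 ± 0.12, adjusted p 0.00373 by edgeR).

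Of 12 tested genes for PAF synthesis and breakdown and for related phospholipid enzymes, 5 were called lower and 0 higher by edgeR, with a median of -0.24. At an unadjusted p under 0.05, 1 gene was higher (Pafah1b3, a subunit of the intracellular PAF acetylhydrolase, named after its values were seen), and DESeq2 called 1 gene higher. Lpcat4, a lysophospholipid acyltransferase and one of the related enzymes, was lower by -0.85 ± 0.12, which is not a measure of PAF synthesis. Pla2g7, the secreted PAF acetylhydrolase that inactivates PAF, averaged 173 ± 38.2 CPM with PGE2 and 410 ± 60.1 CPM with vehicle (-1.25 ± 0.18, adjusted p 0.0019 by edgeR). Pla2g4a, the cytosolic phospholipase that releases the PAF precursor and arachidonic acid, was lower by -0.72 ± 0.12. The count of lower calls was 3 without PGE2 library 2, PGE2 library 3, vehicle library 2 or vehicle library 3.

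Of 13 tested complement regulators and C3 receptors, 5 were called lower and 0 higher by edgeR, with a median of -0.12. At an unadjusted p under 0.05, 1 gene was higher, and DESeq2 called 0 higher. Itgb2 and Itgam, the chains of complement receptor 3, averaged 923 ± 94.8 and 1446 ± 131 CPM with PGE2 and 1805 ± 76.2 and 2251 ± 243 CPM with vehicle, and their log2 fold changes were -0.97 ± 0.10 and -0.64 ± 0.11. Cd55, decay-accelerating factor, averaged 37.5 ± 5.005 CPM with PGE2 and 90.4 ± 26.6 CPM with vehicle (-1.27 ± 0.20, adjusted p 0.00319 by edgeR). Without vehicle library 1 the count was 3 lower.

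Among G protein and second messenger genes, 21 of 31 tested were called lower and 1 higher, with a median of -0.56. Prex1, a Rac activator that responds to beta-gamma subunits, averaged 326 ± 11.3 CPM with PGE2 and 648 ± 43.7 CPM with vehicle (-0.99 ± 0.08, adjusted p 0.000326 by edgeR). Pik3cg, the catalytic subunit of phosphoinositide 3-kinase gamma, averaged 204 ± 21.1 CPM with PGE2 and 444 ± 22.01 CPM with vehicle (-1.12 ± 0.10). Dock2, another Rac activator, was lower by -1.0003 ± 0.09. Gng10, a G protein gamma subunit, was higher by 0.38 ± 0.10 (adjusted p 0.0300 by edgeR). Between 17 and 25 of these genes were called lower under the 13 alternatives. The count of higher calls was 0 without PGE2 library 1, PGE2 library 3, vehicle library 1 or vehicle library 2 and on log2(TPM + 1).

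Receptor kinases, arrestins and trafficking genes included 7 called lower and 0 called higher of 12 tested by edgeR, with a median of -0.48. At an unadjusted p under 0.05, 1 gene was higher, and DESeq2 called 1 higher. Arrb1, beta-arrestin 1, averaged 220 ± 19.5 CPM with PGE2 and 408 ± 34.1 CPM with vehicle (-0.89 ± 0.10, adjusted p 0.000774 by edgeR). Grk6, a receptor kinase, was lower by -0.74 ± 0.09 and Dnm2, the vesicle-scission GTPase dynamin 2, by -0.60 ± 0.08.

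Other lipid and chemoattractant receptors went both ways, with 2 called lower and 4 higher of 8 tested and a median of 0.24. Their list was drawn up to include the nucleotide receptor gene P2ry2 and the C1q-binding protein gene C1qbp as well. Ltb4r1, the leukotriene B4 receptor, averaged 37.7 ± 1.43 CPM with PGE2 and 79.8 ± 5.07 CPM with vehicle (-1.08 ± 0.09, adjusted p 0.000255 by edgeR). Lpar6, a lysophosphatidic acid receptor, averaged 48.7 ± 1.01 CPM with PGE2 and 27.3 ± 1.73 CPM with vehicle, and was higher by 0.83 ± 0.09. Gpr35 was higher by 2.0004 ± 0.31, at 23.6 ± 8.88 CPM with PGE2 and 5.88 ± 1.63 CPM with vehicle. Ccrl2, which binds chemerin without signalling and was named after its values were seen, was higher by 1.57 ± 0.27.

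**Figure D4:**
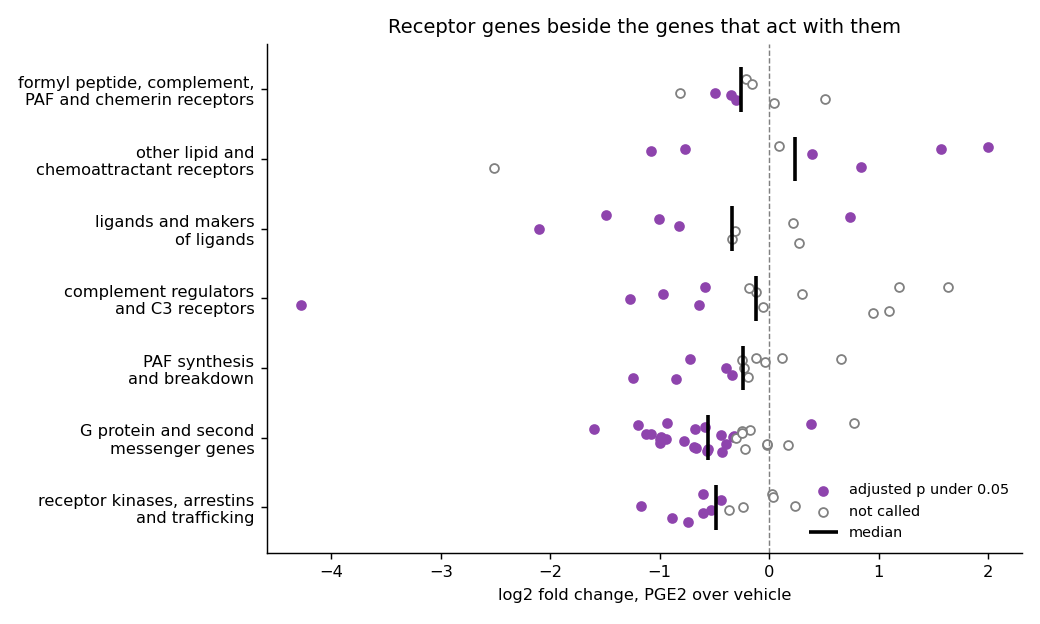
Log2 fold change, PGE2 over vehicle, of each tested gene in 7 lists, with filled points for an adjusted p under 0.05, open points otherwise and a bar at each list's median. Medians lie at -0.26 for the 8 receptors and at -0.56 for G protein and second messenger genes. The median lies at 0.24 for other lipid and chemoattractant receptors, a list drawn up with P2ry2 and C1qbp in it.

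Library totals ran from 42091346 to 56238941 reads. Neutrophil marker genes summed to 74080 to 89604 CPM with PGE2 and 82569 to 88523 CPM with vehicle. Of these, 8 of 12 were called lower, S100a8 and S100a9 not among them, and the median log2 fold change was -0.90. Most of the sum came from S100a9 (means of 42105 CPM with PGE2 and 36044 CPM with vehicle) and S100a8 (19707 CPM with PGE2 and 17488 CPM with vehicle). Monocyte and macrophage markers summed to 757 to 1146 CPM with PGE2 and 1117 to 1513 CPM with vehicle, 2 of 12 called lower (Csf1r, and Adgre1, which was named after its values were seen). The most abundant of these markers, Ly6c2, averaged 397 ± 124 CPM with PGE2 and 601 ± 148 CPM with vehicle. Its groups overlapped and it was not called (adjusted p 0.106 by edgeR). Eosinophil markers, led by Prg2 and Ear2, summed to 69.0 to 109 CPM with PGE2 and 143 to 279 CPM with vehicle, with 5 of 7 called lower. B lineage markers, 7 genes led by Cd79a and Cd79b, summed to 469.9 to 691 CPM with PGE2 and 311 to 414 CPM with vehicle, with 3 called higher. Erythroid markers, led by Hbb-bs and Hba-a1, summed to 15344 to 50880 CPM with PGE2 and 4274 to 19860 CPM with vehicle, with 0 of 7 called by edgeR and 4 higher at an unadjusted p under 0.05. Dendritic cell markers summed to 43.7 to 74.1 CPM with PGE2 and 39.4 to 54.7 CPM with vehicle, with 2 of 7 lower and 1 higher at an unadjusted p under 0.05. That 1 was Klrd1, also a natural killer cell gene, which averaged 41.98 ± 18.4 CPM with PGE2 and 21.1 ± 9.40 CPM with vehicle, the highest mean of the list. Mast cell and basophil markers (88.5 to 148 CPM with PGE2 and 85.0 to 198 CPM with vehicle) and natural killer and T cell markers (66.5 to 155 CPM with PGE2 and 71.5 to 138 CPM with vehicle) had 0 called by edgeR, and 0 at an unadjusted p under 0.05. No marker of these lists was at 0 in all 6 libraries, and the part of these cells in the receptor changes was not tested.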

How the data were processed

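RNA of 6 libraries, 3 PGE2 and 3 vehicle, was prepared with a TruSeq mRNA kit, given in the labels as standard in one place and stranded in another. The submitters' processing notes list the build mm10 and the tools STAR, Bowtie2, RSEM, DESeq2 and StringTie 2.1.3b; the sources used here do not say what each did or whether counting used strand. Estimated counts per gene, whole numbers in the deposited series table, are called normalized by the authors. Their totals differ between libraries, so they were used as unnormalised. A deposited table for each library holds TPM and coverage, per the file headers. Coverage was used to check what a count stands for, in PGE2 library 1 and for the receptor genes with 1 annotated transcript only. The series table also held 18 columns of other libraries, which were not used.

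The 15947 genes that reached 10 counts in 3 or more libraries were tested with edgeR 4.0.16 (quasi-likelihood, TMM, two-sided, Benjamini-Hochberg at 0.05) in R 4.3.3, after a run on simulated data. The biological coefficient of variation was 22.4%. Alternatives were DESeq2 1.42.0, its size factors, library totals, other count filters, limma 3.58.1 on log2(TPM + 1), a replicate block and leaving out each library. Same-numbered libraries deviated together (r 0.26, 0.17 and 0.19), which is why the block was read as pairing, although the labels do not say what the number stands for. Identities and promoters came from GENCODE and RefSeq.

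The members and lists were chosen with earlier results of these data known. Genes named from a list were the 3 called genes lowest in adjusted p, plus at most 2 called the other way. Markers to be named were the 2 most abundant of each marker list, and some of these were not named. A gene named outside these rules is marked in the text. 1 marker gene is not reported here, and its list is given without it. Intervals and floors cover counting error or replicate spread only.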

Additional observations from a re-analysis of the deposited data

How the results depend on the processing

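Over the 13 alternatives, the direction of Fpr1, Fpr2, C5ar1, C5ar2, Ptafr and Cmklr1 stayed negative. Of the comparisons of a receptor's value with its alternative, 87 kept direction and side of the threshold, 6 lost a call, 3 gained one and 3 turned direction, all 3 of them C3ar1 (-0.26 without PGE2 library 1, -0.19 without vehicle library 3 and -0.056 on log2(TPM + 1)); the cause was not tested. Over the leave-one-out fits C3ar1 ranged from -0.26 to 0.32. With 1 library left out, the receptors called lower numbered 1 to 4, genes called higher 1005 to 1541, genes called lower 1627 to 2262 and genes called in all 2632 to 3803. The genes called higher numbered 1618 in the test reported, 2648 with the replicate block and 967 on log2(TPM + 1). The block gave 5657 genes in all and 3009 lower, and changed no call of a receptor. The ratios of Fpr2 to Fpr1 and of C5ar2 to C5ar1 kept their direction in 18 of 18 comparisons. Fpr3, with 2 to 17 reads a library, is limited by its counts. C3ar1 (SD 3.24 on a mean of 8.84 CPM with PGE2) and Cmklr1 (SD 1.36 on a mean of 2.50 CPM with PGE2) spread widely between libraries, and 3 libraries a group limit the rest.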
